A study of Mus musculus with 8 samples.

Results

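Small expanded clones were groups of 2, 3 or 4 conventional αβ T cells of one library that the deposited tables assigned to the same receptor clonotype. They were selected from single-cell receptor contig tables of CD45+ immune cells sorted from brain parenchyma. A cell entered if it had a single productive TRB chain, had 1 or 2 TRA chains that were productive, and was without the invariant natural killer T chain in which TRAV11 or TRAV11D is joined to TRAJ18. Cells were counted per clonotype identifier of the deposited tables, and clonotypes of 2 to 4 cells were kept. This gave 348 small clones with 868 cells, of 3015 conventional clonotypes with 4612 cells. The deposited tables also divide clonotypes into exact subclonotypes, a finer receptor label. Of the small clones 278 had 1 exact subclonotype and 70 had more than 1, so cells of a small clone need not be identical in every chain. The other clonotypes were 2586 single-cell clones and 81 large clones of 5 or more cells, the latter holding 1158 cells.

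The mice were of strain C57BL/6 and came in 2 groups. The 5xFAD group carries transgenes driven by the neuronal Thy1 promoter and is a model of amyloid deposition in the brain, and the 5xFAD;Cxcr6-/- group carries the same transgenes and lacks Cxcr6, which encodes a chemokine receptor of tissue-resident T cells. Each group had 2 receptor libraries. There was no group without the 5xFAD transgenes, and the labels give neither age nor whether a library is 1 mouse or a pool, so p-values cover nothing beyond the spread of these libraries, which may be technical. Gene expression was not analysed here, and loss of Cxcr6 and CD4 or CD8 lineage were not checked.

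A conventional T cell assembles its TRB chain from V, D and J segments and its TRA chain from V and J segments, and enzymes trim the ends and add bases at each joint. The joint encodes the third complementarity-determining region (CDR3), the loop that reads the peptide presented by an MHC molecule. Bases at the joint differ between almost all cells that rearranged independently, so cells with identical CDR3 bases in both chains are taken as descendants of one cell. Expanded clones of CD8+ T cells have been described in aged and amyloid-bearing mouse brains.

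The CDR3 bases below show what a small clone is, with 1 clone of 4 cells per library, the one with the most unique molecular identifiers (UMIs, tags that count captured transcripts) over all its chains, second TRA chains included. Lower case marks bases that match the end of the annotated V segment or the start of the annotated J segment, and capitals mark bases that match neither. In TRB chains the capitals hold what is left of the D segment together with added bases.
5xFAD library 1, TRBV16 to TRBJ2-7: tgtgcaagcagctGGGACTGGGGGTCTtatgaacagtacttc
5xFAD library 1, TRAV14D-1 to TRAJ37: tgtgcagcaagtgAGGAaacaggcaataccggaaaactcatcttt
5xFAD library 2, TRBV3 to TRBJ1-1: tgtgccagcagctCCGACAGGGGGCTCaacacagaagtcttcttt
5xFAD library 2, TRAV12-2 to TRAJ42: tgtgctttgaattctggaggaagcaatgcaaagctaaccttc
5xFAD;Cxcr6-/- library 1, TRBV13-3 to TRBJ1-4: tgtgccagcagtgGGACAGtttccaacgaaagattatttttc
5xFAD;Cxcr6-/- library 1, TRAV14D-1 to TRAJ37: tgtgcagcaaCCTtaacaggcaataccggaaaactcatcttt
5xFAD;Cxcr6-/- library 2, TRBV3 to TRBJ2-4: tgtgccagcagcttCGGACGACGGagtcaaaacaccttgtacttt
5xFAD;Cxcr6-/- library 2, TRAV3D-3 to TRAJ18: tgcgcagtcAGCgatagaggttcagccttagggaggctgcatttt

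Their TRB chains had 81, 55, 76 and 147 UMIs over the 4 cells, and their TRA chains had 19, 22, 30 and 25, in the order printed. The TRB chains held 14, 14, 6 and 10 bases outside V and J, and the TRA chains held 4, 0, 3 and 3. The TRAV12-2 chain of 5xFAD library 2 was thus spelled entirely by its V and J segments. The second clone chosen in each library paired TRBV13-3 with TRAV6-5, TRBV12-2 with TRAV3D-3, TRBV13-1 with TRAV13N-1, and TRBV19 with TRAV6N-7. No V pair recurred among these 8 clones. For some segments, TRAV3D-3 among them, the annotated transcript stops early, so a few capitals there can be germline bases.

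The contig tables listed 2069 and 2522 cells for 5xFAD, and 765 and 1330 cells for 5xFAD;Cxcr6-/-, with 13460 to 34772 UMIs each. The median conventional cell had 9 to 11 TRB UMIs and 4 TRA UMIs. No contig came from another receptor chain. Of all conventional cell labels, 11 occurred in 2 libraries, 6 of them in small clones, and 0 of these had the same CDR3 bases in both libraries.

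There were 79 and 151 small clones in 5xFAD libraries 1 and 2, and 46 and 72 in 5xFAD;Cxcr6-/- libraries 1 and 2. Over all libraries 221 had 2 cells, 82 had 3 and 45 had 4. Small clones held 15.1% (95% Clopper-Pearson interval 13.2 to 17.2) and 21.8% (19.9 to 23.9) of conventional cells for 5xFAD, and 21.9% (18.5 to 25.6) and 16.8% (14.6 to 19.3) for 5xFAD;Cxcr6-/-. These intervals cover counting error only. The genotypes overlapped, with the lowest value in a 5xFAD library and the highest in a 5xFAD;Cxcr6-/- library.

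Clone sizes grow with the number of cells sampled, so the share was also computed as its expected value in 544 cells, the number in the smallest library. It was then 14.8% and 20.7% for 5xFAD, and 21.9% and 13.1% for 5xFAD;Cxcr6-/-. The means were 17.8% ± 4.21 and 17.5% ± 6.24 (SD, n = 2 each), a difference of -0.29 percentage points (exact two-sided permutation test, p = 1, where 2 against 2 cannot go below 0.333). The difference was far smaller than the spread between libraries of one genotype. Leaving out 1 library moved it between -4.71 and 4.12 points: it was -3.27 without 5xFAD library 1, 2.68 without 5xFAD library 2, -4.71 without 5xFAD;Cxcr6-/- library 1 and 4.12 without 5xFAD;Cxcr6-/- library 2. Large clones, measured the same way, held 23.5% ± 6.14 and 9.11% ± 0.93 of cells (exact two-sided permutation test, p = 0.333).

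**Figure D1:**
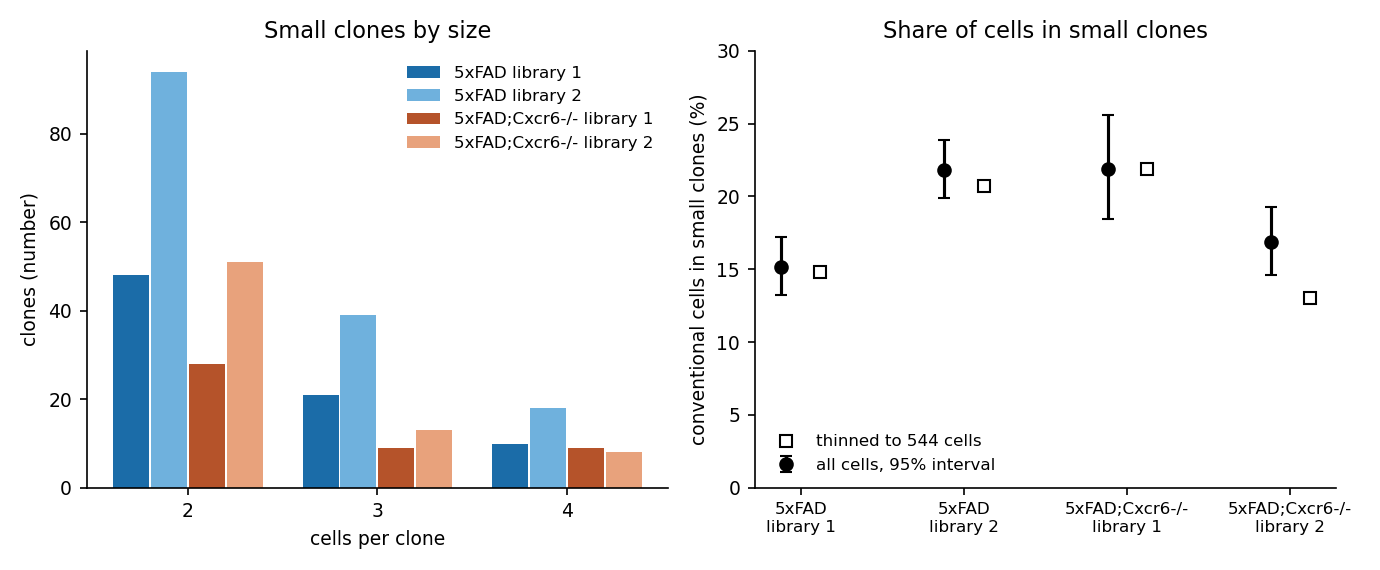
Left, number of small clones by cells per clone in each of the 4 libraries. Right, percent of conventional cells in small clones, for all cells with 95% intervals (filled) and as the expected value in 544 cells (open); the open values of the genotypes interleave, at 14.8% and 20.7% against 21.9% and 13.1%.

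At the edges of the size rule, which are a description, the mean TRB CDR3 had 13.9 residues in the 2586 single-cell clones, 13.7 in the 221 clones of 2 cells, 14.0 in the 45 clones of 4 cells and 14.2 in the 12 clones of 5 cells. TRBJ2 segments were in 65.6%, 65.2%, 71.1% and 66.7% of these clones. The 82 clones of 3 cells, in the middle of the rule, had 13.9 residues and 59.8%, so the TRBJ2 share did not move steadily with size. The size also depends on the cell filter. In all, 71 cells of these clonotypes were left out, 41 for having no TRA chain, 17 for no TRB chain and 12 for 2 or more TRB chains. With them, 19 of the 348 small clones had more than 4 cells.

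The V and J segments of small clones were compared with those of single-cell clones. Among small clones 22 of 22 TRBV, 12 of 12 TRBJ, 72 of 87 TRAV and 42 of 43 TRAJ labels occurred. Each clone was counted once, and counts per segment were compared within libraries with edgeR's quasi-likelihood test. It called 1 of 148 segments (0.676%) at an adjusted p under 0.05, and 10 segments had an unadjusted p under 0.05. On simulated data this test found 56% of 4-fold and 6.5% of 2-fold changes, so few calls do not show equal usage. The simulated libraries differed by counting error only, so recovery in the real libraries may be lower. Over all 148 segments, 67 were higher and 81 lower in small clones, with a median log2 fold change of -0.05.

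The called segment was TRBV20 (GRCm38, chromosome 6, 41188273 to 41188977, plus strand, a V gene). It was in 1 of 348 small clones, which was a 2-cell clone of 5xFAD library 1, against 91 of 2586 single-cell clones. Single-cell clones carried it at 3.31% and 3.70% for 5xFAD and at 4.75% and 2.87% for 5xFAD;Cxcr6-/-. Small clones were at 1.27% in 5xFAD library 1 and at 0 in the other libraries, so they were lower in 4 of 4. The ratio of the pooled shares was 0.0817, with a 95% exact interval from 0.00205 to 0.467. This interval covers counting error only and leaves out the spread between libraries and the choice of the segment. On the log2 scale the fitted change was -3.49 with an SE of 0.93 (edgeR, adjusted p = 0.0285), a value that depends on the prior count.

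TRBV20 was in 0 of 81 large clones, which allows a share of up to 3.70%. This segment had already stood out in earlier results on these same cells, so the call is not independent support. The call rests on few counts. It was lost without 5xFAD library 2 (adjusted p = 0.667), without 5xFAD;Cxcr6-/- library 1 (0.288), without 5xFAD;Cxcr6-/- library 2 (0.146), and with DESeq2 (0.614), and over 13 alternatives the adjusted p ran from 0.0137 to 0.731. Without 5xFAD library 1, which holds the only small clone with TRBV20, the log2 fold change was -6.75 and the call stayed (adjusted p = 0.0229). When size was counted from all deposited cells the log2 fold change was -1.23.

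The remaining segments with the smallest p did not pass adjustment (edgeR adjusted p = 0.396 or above). TRBV29 was in 10.1% and 8.61% of small clones for 5xFAD and in 10.9% and 4.17% for 5xFAD;Cxcr6-/-. In single-cell clones it was at 5.42%, 3.82%, 5.28% and 3.55%, so small clones were higher in 4 of 4 libraries, though by little in the last. Its log2 fold change of 0.93 had an SE of 0.34 (edgeR, adjusted p = 0.396). TRBV12-2 was in 27 small clones, 17 of them in 5xFAD library 2, with a log2 fold change of 0.70. TRAJ12 was in 18, with 0.88.

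On the lower side, TRBJ2-5 was in 24 small clones, 7.50% on average over libraries, against 11.5% of single-cell clones, and was lower in 4 of 4 libraries (log2 fold change -0.76 with an SE of 0.31, edgeR, adjusted p = 0.396). TRAJ6, which lies toward the constant region end of the TRAJ cluster, was in 0 of 348 small clones, which allows up to 0.862%, and in 36 of 2586 single-cell clones. The 95% exact interval of the ratio of pooled shares reached up to 0.802, and it too covers counting error only. With library as block TRAJ6 did not pass adjustment (edgeR, adjusted p = 0.396). It was in 0 of 81 large clones.

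**Figure D2:**
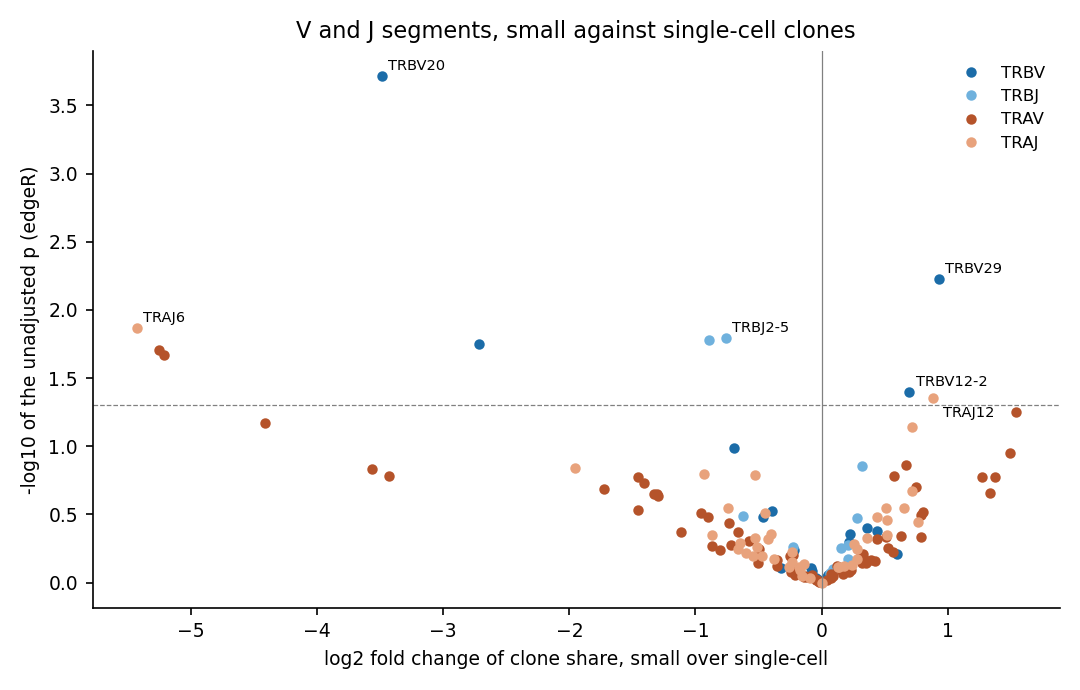
Log2 fold change of the share of clones, small over single-cell, against -log10 of the unadjusted edgeR p for 148 V and J segments, coloured by segment type, with the dashed line at the 0.05 level. TRBV20 lies highest, at -3.49, and TRBV29, at 0.93, is next by p.

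Usage among small clones was broad. The most used TRBV label was TRBV12-2+TRBV13-2, a joined label of the deposited tables, in 30 small clones (9.58% averaged over libraries, against 8.46% of single-cell clones). With the plain label TRBV13-2 added, which marks the same segment in some clones, the direction turned, to 8.91% of all small and 10.4% of all single-cell clones. It was followed by TRBV3 at 8.67%, TRBV29 at 8.44%, TRBV19 at 8.43% and TRBV13-3 at 6.997%. TRBJ2-7 was in 93 small clones, from 19.4% in 5xFAD;Cxcr6-/- library 2 to 38.0% in 5xFAD library 1, against 20.2% to 22.2% of single-cell clones. TRBJ1-1 and TRBJ2-1 followed at 12.3% and 11.7%. The spread of TRBJ2-7 was thus much wider among small clones, which number 46 to 151 per library, than among single-cell clones.

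On the TRA side the leading V segments were TRAV12-2 at 5.64%, TRAV3D-3 at 4.07%, TRAV6-6 at 4.07%, TRAV13-1 at 3.93% and TRAV7-5 at 3.82%. TRAV12-2 (GRCm38, chromosome 14, 53616315 to 53616914) was higher than in single-cell clones in 4 of 4 libraries (log2 fold change 0.57 with an SE of 0.41, edgeR, adjusted p = 0.965). Of the named segments TRAJ12, TRAJ37, TRAJ43 and TRBV29 were also higher in 4 of 4, and TRAJ6, TRBJ2-5, TRBV12-1 and TRBV20 were lower in 4 of 4. The number over all segments tested is not given here, so such agreement is a description only. The leading J segments were TRAJ49 at 6.44%, TRAJ30 at 4.98% and TRAJ37 at 4.77%, against 3.57%, 4.26% and 3.20% of single-cell clones. The mouse TRAV locus holds near-identical copies, such as TRAV16 and TRAV16N, whose labels in the deposited tables are uncertain.

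**Figure D3:**
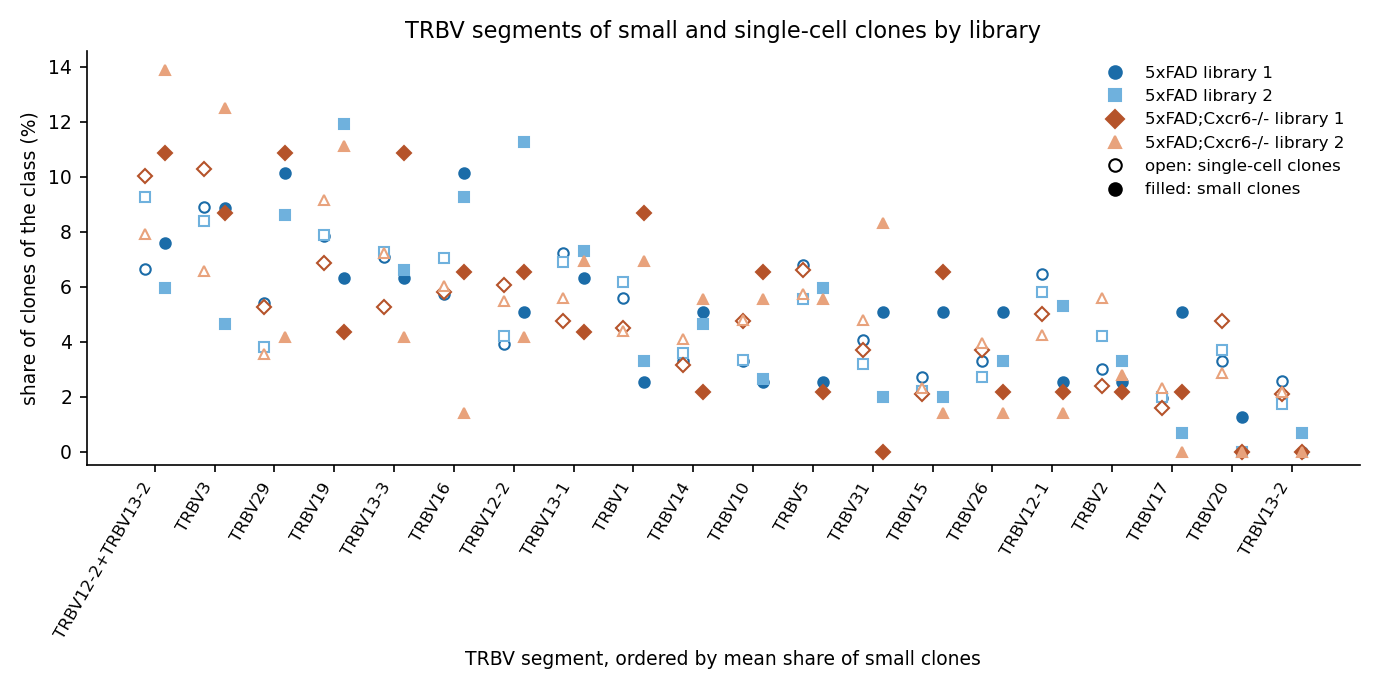
Percent of small clones (filled) and single-cell clones (open) carrying each TRBV label, with 1 symbol per library. TRBV20, at 0 to 1.27% of small clones, lies below the open symbols in every library.

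Against the 81 large clones, edgeR called 0 of 63 segments (0%), and 0 had an unadjusted p under 0.05. The segments highest in small clones by p were TRAJ30 (17 small against 1 large clone), TRAJ43 (11 against 0, which allows up to 3.70% of large clones) and TRBV14 (16 against 1). Those lowest were TRBV12-1 (12 against 7), TRAV10 (8 against 5) and TRAV16 (7 against 5). TRBJ2-1 averaged 11.7% of small clones and 21.1% of large clones (log2 fold change -0.66 with an SE of 0.49, edgeR, adjusted p = 0.951). The large class has only 6 and 10 clones in the 5xFAD;Cxcr6-/- libraries. In simulated data of this size the test recovered 13.5% of 4-fold changes, so most differences of that size would not be called.

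Between genotypes, edgeR called 0 of 51 segments (0%) among small clones. Only TRAV16N had an unadjusted p under 0.05, with 1 and 3 small clones for 5xFAD and 1 and 6 for 5xFAD;Cxcr6-/- (log2 fold change 1.69, SE 0.78, edgeR, adjusted p = 0.871). It has near-identical copies in the locus, and 6 of its 11 small clones were in 1 library. TRBV1 was at 2.53% and 3.31% of small clones for 5xFAD and at 8.70% and 6.94% for 5xFAD;Cxcr6-/- (log2 fold change 1.29 with an SE of 0.65, edgeR, adjusted p = 0.871). TRBV12-2+TRBV13-2 was at 7.59% and 5.96% against 10.9% and 13.9% (log2 fold change 0.95, SE 0.61). In both segments the genotypes did not overlap, which held for 18 of all 51 segments tested (35.3%).

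Lower in 5xFAD;Cxcr6-/- small clones, and also without passing, were TRBJ1-3 at 6.33% and 8.61% against 4.35% and 1.39% (log2 fold change -1.57, SE 0.81) and TRBV16 at 10.1% and 9.27% against 6.52% and 1.39% (-1.46, SE 0.79). TRAJ12 was at 5.06% and 7.28% against 2.17% and 2.78% (-1.31, SE 0.77). Genotypes did not overlap in these 3 segments, which are among the same 18 of 51, and none reached an edgeR adjusted p under 0.871. In single-cell clones TRAJ12 was also without overlap, at 4.22% and 2.59% against 1.06% and 2.46%, while TRBJ1-3 and TRBV16 overlapped. In simulated data the genotype test recovered 37% of 4-fold and 1.5% of 2-fold changes.

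The difference between small and single-cell clones was also compared between genotypes. For this interaction edgeR called 0 of 148 segments (0%), and 2 had an unadjusted p under 0.05, TRBV1 and TRBJ1-6. TRBV1 was lower in small than in single-cell clones in both 5xFAD libraries and higher in both 5xFAD;Cxcr6-/- libraries (interaction log2 1.75, SE 0.82, edgeR, adjusted p = 0.992). TRBJ1-6 was in 0 and 1 small clones for 5xFAD and in 1 and 4 for 5xFAD;Cxcr6-/- (edgeR, adjusted p = 0.992).

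TRB CDR3 lengths hardly differed between small and single-cell clones. The mean TRB CDR3 of small clones had 13.5 and 13.9 residues for 5xFAD and 13.6 and 14.1 for 5xFAD;Cxcr6-/-. Single-cell clones had 14.0, 13.8, 13.9 and 13.8, so small clones were shorter in 2 of 4 libraries and longer in 2. The mean difference was -0.11 residues ± 0.32 (SD, n = 4, exact sign-flip permutation test, two-sided p = 0.625, where 4 libraries cannot go below 0.125). Leaving out 5xFAD library 1 gave 0.01. Against large clones the mean difference was -0.31 residues ± 0.54 (SD, n = 4, exact sign-flip permutation test, p = 0.5), and small clones were longer in 2 of 4 libraries. The lengths of the 348 small clones ran from 8 to 18 residues in TRB and from 7 to 18 in TRA, with a median of 14 in both.

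TRA CDR3s of small clones averaged 13.6 residues against 13.7 in single-cell clones and 14.0 in large clones. They were shorter than in large clones in 4 of 4 libraries, with a mean difference of -0.37 ± 0.24 (SD, n = 4, exact sign-flip permutation test, p = 0.125, adjusted p = 0.938 over 20 features).

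**Figure D4:**
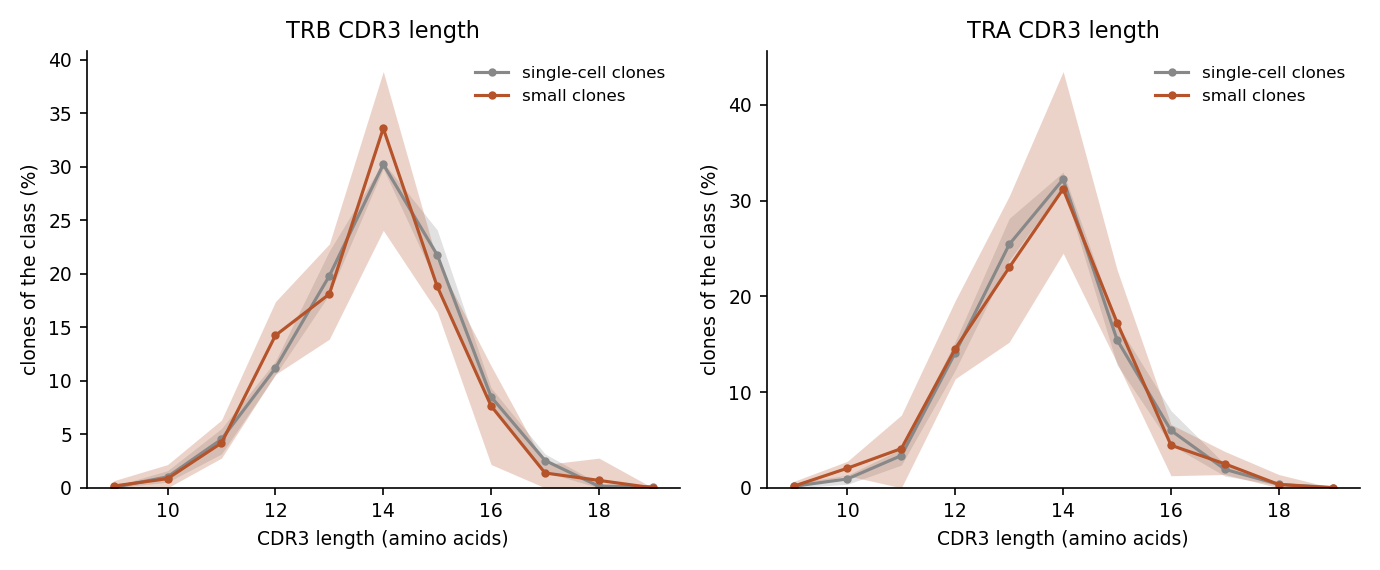
Percent of clones by CDR3 length in amino acids for TRB (left) and TRA (right), as the mean of 4 libraries (line) and their lowest to highest value (band), for small and single-cell clones. Both classes peak at 14 residues in both chains.

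Of 20 chain features compared between small and single-cell clones, 3 went the same way in 4 of 4 libraries, each at the smallest p the design allows (exact sign-flip permutation test, p = 0.125, adjusted p = 0.833). The share of TRAJ58 to TRAJ40, the J segments nearest to the V cluster that are used by early rearrangements, was 29.98% against 27.01%. By library it was 26.6%, 25.8%, 37.0% and 30.6% in small clones and 25.3%, 25.6%, 27.2% and 29.9% in single-cell clones, in the order 5xFAD library 1 and 2, then 5xFAD;Cxcr6-/- library 1 and 2. The mean difference of 2.97 points came mostly from 5xFAD;Cxcr6-/- library 1. TRA bases outside V and J were 3.20 against 3.10 per chain.

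The third was TRA depth, with UMIs summed over all TRA chains of a cell. Small clones had 5.51 TRA UMIs per cell against 5.06 in single-cell clones, a difference of 0.44 ± 0.33 (SD, n = 4). TRB UMIs were 11.2 against 11.4 per cell and differed in direction between libraries. A second TRA chain was seen in 12.3% of cells of small clones and 10.0% in single-cell clones. The share was higher in 3 of 4 libraries (exact sign-flip permutation test, p = 0.25). A second TRA chain adds its UMIs to the TRA sum of its cell, so this share and TRA depth are linked. The part of either in the other was not tested.

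Between genotypes, small clones of the 5xFAD libraries had a TRB loop charge of -0.81 and -0.81, and those of the 5xFAD;Cxcr6-/- libraries of -0.61 and -0.58. The loop leaves out the first and last 3 residues, and charge counts lysine and arginine less aspartate and glutamate. The difference of 0.21 ± 0.01 (pooled SD, n = 2 each) had no overlap, as in 5 of the 20 features (25%) (exact permutation test, p = 0.333, the smallest possible, adjusted p = 0.952). TRAJ58 to TRAJ40 was at 33.8% against 26.2%, and TRAJ39 to TRAJ21 at 42.1% against 49.8%, the 5xFAD;Cxcr6-/- value first, both among those 5 features. By the library shares given above, TRAJ58 to TRAJ40 was also higher in both 5xFAD;Cxcr6-/- libraries among single-cell clones, so this was not particular to small clones. TRB UMIs per cell were higher by 1.66 and TRA UMIs were 5.88 against 5.14 per cell, so depth differed between genotypes in the same libraries, and its part in the other differences was not tested.

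**Figure D5:**
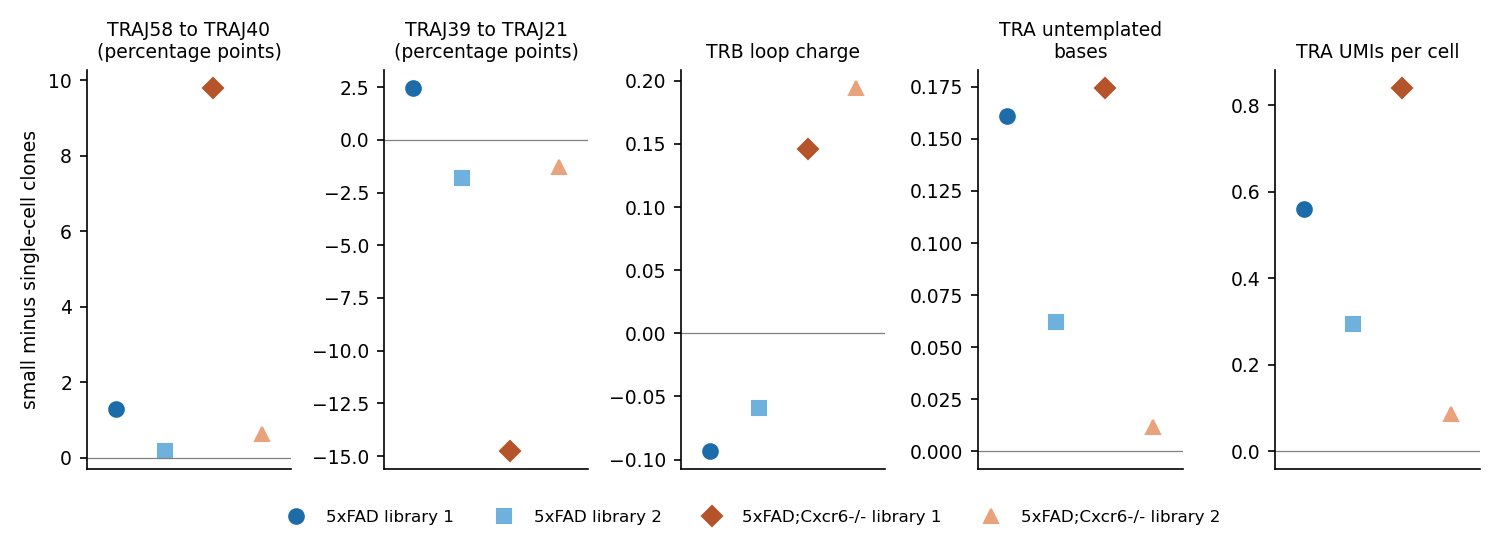
Small minus single-cell clones for 5 chain features, with 1 symbol per library and the line at 0. The 4 libraries lie above 0 for TRAJ58 to TRAJ40, TRA untemplated bases and TRA UMIs, and TRB loop charge is below 0 in both 5xFAD libraries and above 0 in both 5xFAD;Cxcr6-/- libraries.

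Within the TRB loop, small clones had less threonine than single-cell clones in 4 of 4 libraries, 8.43% against 9.48% of loop residues. Valine was also lower in 4 of 4, at 1.26% against 1.39%, though by little in 5xFAD library 1, at 1.68% against 1.70%. Serine, at 16.2% against 15.3%, and isoleucine, at 1.24% against 0.88%, were higher in 4 of 4. Glycine, the most frequent loop residue, was at 18.6% against 17.8%. Apart from glycine, the residues named were picked from all amino acids for going the same way in 4 of 4 libraries. These shares were not tested, and residues of one clone are not independent.

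The 2 TRBD segments differ early in their sequence, and their annotated bases are printed here because they can be seen within the capitals of the small clones. In mouse TRBD2 lies behind the TRBJ1 cluster and so joins TRBJ2 segments.
TRBD1: GGGACAGGGGGC
TRBD2: GGGACTGGGGGGGC

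The first 6 letters of TRBD1, GGGACA, were found on the coding strand in 31 of 123 small clones with a TRBJ1 segment (25.2%) and in 36 of 225 with a TRBJ2 segment (16.0%). In single-cell clones the shares were 24.2% and 12.8%. The first 6 letters of TRBD2, GGGACT, were in 2 of 123 small clones with TRBJ1 (1.63%) and in 29 of 225 with TRBJ2 (12.9%), against 1.12% and 12.7% of single-cell clones. Pooled over libraries, small clones thus carried both at shares near those of single-cell clones. By library the shares of GGGACA varied. With TRBJ2 it was in 18.6% and 18.1% of small clones for 5xFAD, and in 0% and 17.8% for 5xFAD;Cxcr6-/-. Single-cell clones were at 11.9%, 11.7%, 16.9% and 12.9%, in the same order. With TRBJ1 small clones were at 15%, 21.1%, 31.6% and 37.0%, and single-cell clones at 23.8%, 24.7%, 26.1% and 22.8%. These library differences rest on 19 to 94 small clones each and were not tested. The deposited tables named a D segment for 82 of the 348, TRBD1 in 55 and TRBD2 in 27.

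Pairing of the chains was diverse. The 348 small clones used 285 different pairs of TRAV and TRBV, and 48 pairs were used more than once. The 2586 single-cell clones used 1081 pairs, 635 of them more than once, and the 81 large clones used 69, 10 of them more than once. These counts depend on the number of clones in a class. The most used pair was in 16 single-cell clones and in 3 large clones. Among small clones the most frequent pair was TRAV14D-1 with TRBV16, in 5 small clones, 3 in 5xFAD library 1 and 2 in 5xFAD library 2. It was in 2 other conventional clones, both single. The TRB chains of these 5 are shown because the pair recurs.
5xFAD library 1, 4 cells, TRBJ2-7: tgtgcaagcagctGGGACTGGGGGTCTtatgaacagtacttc
5xFAD library 1, 3 cells, TRBJ2-4: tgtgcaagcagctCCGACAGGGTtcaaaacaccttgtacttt
5xFAD library 1, 2 cells, TRBJ2-1: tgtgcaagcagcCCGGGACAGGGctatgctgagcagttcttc
5xFAD library 2, 3 cells, TRBJ2-7: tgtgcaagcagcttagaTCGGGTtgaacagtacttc
5xFAD library 2, 2 cells, TRBJ2-7: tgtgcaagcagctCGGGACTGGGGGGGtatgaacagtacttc

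All 5 used a TRBJ2 segment, as did 64.7% of the 348 small clones, 4 of them had a CDR3 of 14 residues, as did 33.3%, and their TRA chains ended in 4 different J segments, TRAJ37, TRAJ30, TRAJ50 and TRAJ31. Both other clones with this V pair also used TRBJ2. The next pairs were TRAV12-2 with TRBV12-2, in 4 small clones of 2 libraries and 7 other clones, and TRAV13-2 with TRBV10, in 3 small clones of 3 libraries and 2 others. The last was tied at 3 with further pairs.

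A set of 3 clones of 5xFAD library 2, picked after the values were seen, shared 1 TRA chain, TRAV3D-3 joined to TRAJ12, base for base, and the segment TRBV5, but had 3 different TRB joints. They had 5, 4 and 2 cells, so the first is a large clone. The shared TRA chain comes first.
TRAV3D-3 to TRAJ12, shared: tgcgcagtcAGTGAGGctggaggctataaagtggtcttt
TRBV5 to TRBJ2-1, 5 cells: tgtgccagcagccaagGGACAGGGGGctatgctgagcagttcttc
TRBV5 to TRBJ1-2, 4 cells: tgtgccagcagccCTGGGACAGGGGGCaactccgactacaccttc
TRBV5 to TRBJ1-2, 2 cells: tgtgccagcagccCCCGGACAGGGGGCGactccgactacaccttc

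Each of these 3 TRB chains encodes 15 residues, and each holds the letters GGACAGGGGG of TRBD1. Other TRA chains recurred too. The TRA bases of 34 of the 348 small clones were also seen with another TRB chain in the 4 libraries. By library this was 10.1%, 10.6%, 4.35% and 11.1% of small clones and 6.63%, 6.66%, 5.28% and 5.46% of single-cell clones, higher in 3 of 4. The recurring TRA chains of small clones had a median of 1 base outside V and J, and 16 of 34 had none. The 314 others had a median of 3, and 34 had none.

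The small-clone TRA chain seen with the most TRB chains joined a TRAV14 copy to TRAJ22 with no added base by most of its labels. It is printed because it was carried by 12 clonotypes with 12 different TRB chains in 3 libraries, 2 of them small clones and 10 single.
TRAV14 copies to TRAJ22: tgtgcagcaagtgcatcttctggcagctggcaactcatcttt

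TRB residues recurred between libraries in 9 of the 348 small clones, and 0 pairs of small clones shared both the residues and the TRBV label across libraries. One sequence of 12 residues was found in 2 small clones and 1 single-cell clone, spelled by 3 different base sequences with 3 TRBV segments and 3 different TRA chains. The 3 are shown because the residues are identical and the bases are not.
5xFAD library 1, TRBV12-2 to TRBJ2-7, 2 cells: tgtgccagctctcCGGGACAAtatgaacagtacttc
5xFAD;Cxcr6-/- library 2, TRBV14 to TRBJ2-7, 2 cells: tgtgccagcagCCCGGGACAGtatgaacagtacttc
5xFAD;Cxcr6-/- library 2, TRBV12-1 to TRBJ2-7, 1 cell: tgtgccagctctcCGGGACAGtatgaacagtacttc

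Identical TRB bases in 2 libraries were seen for 2 small clones, each time with different TRA chains. One was a 2-cell clone of 5xFAD;Cxcr6-/- library 2, whose TRBV19 chain was also in a 7-cell clone of 5xFAD library 1. The other was a 3-cell clone of 5xFAD library 1, whose TRBV3 chain was also in a single cell of 5xFAD;Cxcr6-/- library 2.
TRBV19 to TRBJ2-7, both libraries: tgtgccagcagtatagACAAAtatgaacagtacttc
TRBV3 to TRBJ1-3, both libraries: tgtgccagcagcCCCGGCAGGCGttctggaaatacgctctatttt

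Near matches were searched at 1 changed residue. A TRB chain with the same length and 1 residue different was present in the conventional clones of the same library for 60 of the 348 small clones, 15.6% on average over libraries, against 12.6% of single-cell clones. The difference of 2.97 points ± 4.80 (SD, n = 4) was smaller than its spread and was higher in 3 of 4 libraries (exact sign-flip permutation test, p = 0.375).

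Some clonotype identifiers split cells with the same receptor. In 8 of the 348 small clones, the CDR3 bases of both chains were also those of another clonotype of the library, and 3 of these would have had 5 or more cells when joined. In 4 of the 8 the clonotypes differed in the TRBV label, TRBV13-2 in one and TRBV12-2+TRBV13-2 in the other. The plain label TRBV13-2, picked out after its values were seen, was in 1 small clone against 55 single-cell clones, and the joined label in 30 against 215. Contigs with the plain label had a median length of 539 bases and those with the joined label 568, so contig length moved with the label.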

How the data were processed

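The authors deposited a contig table per receptor library, in which reads and UMIs are whole-number counts without normalization, per the file headers. The submitters' processing notes name Cell Ranger 6.0 and mm10. The kit was 10x Chromium Single Cell Immune Profiling v2, per the labels' protocols. Deposited clonotype identifiers defined clones, each represented by its TRB and its most frequent TRA. Small clones and gene lists were chosen with earlier results of these data known.

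Segment counts (at least 10 clonotypes, library as block for size contrasts) were tested with edgeR 4.0.16 in R 4.3.3 (quasi-likelihood, log of the clonotype total as offset, Benjamini-Hochberg over all segments, threshold 0.05), with DESeq2 1.42.0 as an alternative. An SE is the fold change over the square root of F. Named segments were those called, those most used, the 3 of each direction with the smallest p per contrast, and TRBV20. Other values are means over libraries, except the values by exact clone size and the shares of all clones, which are pooled. Exact permutation tests ran through all sign or group arrangements. Clopper-Pearson intervals and the adjusted p-values of features came from scipy 1.17.1. Thinning to 544 cells used the hypergeometric expectation. Germline ends came from GENCODE vM21 transcripts (GRCm38, the build mm10 names) and matched 96.0% of TRB and 99.9% of TRA chains. TRBV10 had none and its bases are not printed. On simulated data, the test of small against single-cell clones found 56% of changes of 4-fold and 6.5% of those of 2-fold. All simulated counts were Poisson draws from the pooled share of each segment, without further spread between libraries.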

Additional observations from a re-analysis of the deposited data

Results flagged for a closer look

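Among the 20 chain features and the 30 named segments, 4 differences between small and single-cell clones went opposite ways in the genotypes, up in both libraries of one and down in both libraries of the other. Over all 148 segments tested, 15 did so (10.1%), and the segments outside the naming rule are not listed here. For TRB loop charge the 5xFAD;Cxcr6-/- effect minus the 5xFAD effect was 0.25, and this difference was not tested. For TRBV1 it was 6.34 percentage points of clones (edgeR interaction, adjusted p = 0.992). For TRBJ1-1 it was 4.96 points (edgeR adjusted p = 0.992). For TRAV16 it was -2.39 points on 7 small clones (edgeR adjusted p = 0.992).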

How the results depend on the processing

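The single segment called between small and single-cell clones was TRBV20, and the count fell from 1 to 0 with DESeq2, with at least 3 UMIs per chain, with size counted from all deposited cells and with small clones of 2 or 3 cells. Leaving out 1 library gave 0 to 1 called segments. Its fold change kept its direction in all 13 alternatives, with log2 values from -6.75 to -1.23. The counts of 0 against large clones and between genotypes were 0 in every alternative run, with up to 7 segments at an unadjusted p under 0.05 by edgeR with TMM scaling and 0 by DESeq2. The interaction was run in 1 setting. By the labels, same-numbered libraries have only a number in common. The correlation of their deviations was 0.0075 over 51 segments, and whether they share a batch cannot be told from it. A replicate block left the genotype count at 0. Under that block the share difference is -0.29 points by arithmetic, so it is not a separate check. The share difference ran from -4.71 to 4.12 points and the TRB length difference from -0.22 to 0.01 residues when 1 library was left out. Fewer than 50 small clones in 1 library limit its shares.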

Other observations

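Mucosal-associated invariant T cells, which pair TRAV1 and TRAJ33, were at 0 of 348 clones, which allows a share of up to 0.862%. TRAJ18 was in 9 small clones with V segments other than TRAV11 and TRAV11D, and TRAV11 was in 1, joined to TRAJ27 and paired with TRBV3. A second TRA chain was seen in 62 of the 348 small clones, and in 25 of them in every cell.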
